A study of Mus musculus with 48 samples.

Results

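Blood endothelial cells (BECs) sorted from lymph nodes of lymphoma-bearing mice were compared with BECs of naive mice. The samples were chosen by their labels alone: 12 of the 48 array strips of the series carried BEC RNA, and these strips were 6 of its 24 biological replicates, 3 from naive and 3 from tumor-bearing mice, each hybridised on 2 strips. In the study, Eμ-Myc lymphoma B cells, which carry a Myc transgene driven by the immunoglobulin heavy chain enhancer and resemble human Burkitt's lymphoma, were injected i.v. into wild type C57BL/6N mice, and the stromal cells of skin-draining lymph nodes were profiled on Illumina mouse bead arrays. The other sorted populations were fibroblastic reticular cells (FRCs), the endothelium of lymph vessels (LECs) and double negative (DN) cells without CD31 and gp38. Naive mice had received no lymphoma cells. Tumor-bearing mice had received 200000 to 400000 lymphoma cells, and lymphoma made up 4 to 10% of the lymphocytes at the time of analysis. In both groups cervical, axillary, brachial and inguinal nodes were digested, leukocytes were depleted over CD45, and BECs were sorted as CD31+gp38- cells after gating out CD45+, Ter119+ and dead cells. Each array received 80 ng RNA pooled from 4 to 6 sorts, so that 1 replicate averages several mice. The labels call the replicates biological without naming separate animals. The p-values of the main test rest on the spread between such pools in all 8 groups of the series, not in BECs alone. The study's methods used several lymphoma clones and mice of both sexes, and which clone or sex entered which pool was not given in the sources used here.

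BECs line the blood vessels of the lymph node, from arterioles through capillaries to the high endothelial venules (HEVs). HEVs are postcapillary venules whose plump cells carry peripheral node addressin (PNAd), sulfated and fucosylated sugars on proteins such as GlyCAM-1 and CD34 that are bound by L-selectin on lymphocytes, and present the chemokine CCL21. Their cells keep this state through signalling by the lymphotoxin β receptor and NF-κB, and when a node swells its endothelium can proliferate.

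The sorted cells carried the RNA of blood endothelium in every replicate. Signals are given as log2 of the normalised fluorescence, and the level of an unlit probe was put at 5.57. Pecam1, which encodes CD31, read 14.48, 14.44 and 14.88 in naive replicates 1, 2 and 3 and 14.47, 14.18 and 14.48 in tumor replicates 1, 2 and 3. Cdh5, the vascular cadherin, read 13.43 to 14.21 over the 6 replicates. The naive mean of Pecam1 was 7.31 in FRCs, 7.50 in DN cells and 13.62 in LECs. None of the 16 markers of blood endothelium passed the test between naive and tumor BECs, and their median log2 change was -0.25. Prox1, the master factor of lymphatic identity, read 9.32, 8.89 and 8.36 in naive and 6.09, 7.89 and 8.41 in tumor BECs, against a naive mean of 13.27 in LECs. Lyve1, the lymphatic hyaluronan receptor, read 9.49 to 11.53, and neither lymphatic gene passed the test.

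The replicates of a group were not alike, and differed in the markers of other cells. The summed linear signal of 14 B cell markers was 2607 to 3612 in naive BECs, 13330 and 23110 in tumor replicates 1 and 2, and 3028 in tumor replicate 3. Leukocyte markers followed, with a sum over 10 genes of 7131 to 8391 in naive BECs, 24990 and 50960 in tumor replicates 1 and 2, and 7607 in tumor replicate 3. Fibroblast markers split the replicates otherwise: their sum over 16 genes was 12450 in naive replicate 2, 36870 and 22700 in tumor replicates 2 and 3, and 5495 to 6540 in the other 3 replicates. Among them Pdgfra, the PDGF receptor of fibroblasts, read 10.39 and 9.16 in tumor replicates 2 and 3 and 6.82 in tumor replicate 1, and Pdpn, which encodes gp38 and was gated out, read 11.51 and 10.20 against 8.12. Pericyte and smooth muscle markers (14 genes) summed to 12470 to 25060 in naive and 28410 to 37700 in tumor BECs, and Acta2, smooth muscle actin, rose (log2 change 1.26 ± 0.33 SE, n = 3 and 3, adjusted p = 0.032), a call lost when naive replicate 1 or 3 or tumor replicate 1 or 2 was left out (adjusted p up to 0.23). On the first principal component, which held 54.65% of the variance, the naive replicates lay at -34.6, -26.3 and -37.3 and tumor replicates 1, 2 and 3 at 36.2, 63.6 and -1.59. In bulk RNA, fewer cells of a type and less RNA per cell cannot be told apart. The depth was even, with 1019610 to 1044181 beads per BEC strip, and the strips of a replicate correlated at 0.994 to 0.995. Array position was not modelled, and effects of tumor and of array position cannot be told apart.

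Of 13353 genes tested, 472 were higher (3.53%) and 195 lower (1.46%) in tumor BECs by limma's moderated test at an adjusted p under 0.05. The median log2 change over all tested genes was -0.04, with 6156 genes above 0 and 7197 below it. The rises were larger than the falls: 152 genes rose at least 4-fold, whereas the lowest change of any tested gene was -2.38 and 89 genes fell at least 2-fold. The 3 naive and 3 tumor values did not overlap for 12.7% of all genes upward and for 13.0% downward, and 643 of the 667 called genes were among them. An exact permutation test of 3 against 3 cannot go below p = 0.1. Leaving out tumor replicate 3 raised the counts to 885 higher and 481 lower, while leaving out tumor replicate 2 lowered them to 152 and 31, tumor replicate 1 to 198 and 44, naive replicate 3 to 217 and 46, and naive replicate 1 to 292 and 76. A fit of the 6 BEC replicates alone, without the spread of the other populations, called 113 higher and 17 lower. Without tumor replicates 1 and 2, which had the high B cell sums, 0 genes were called in limma and 329 were higher and 256 lower at an unadjusted p under 0.05.

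**Figure D1:**
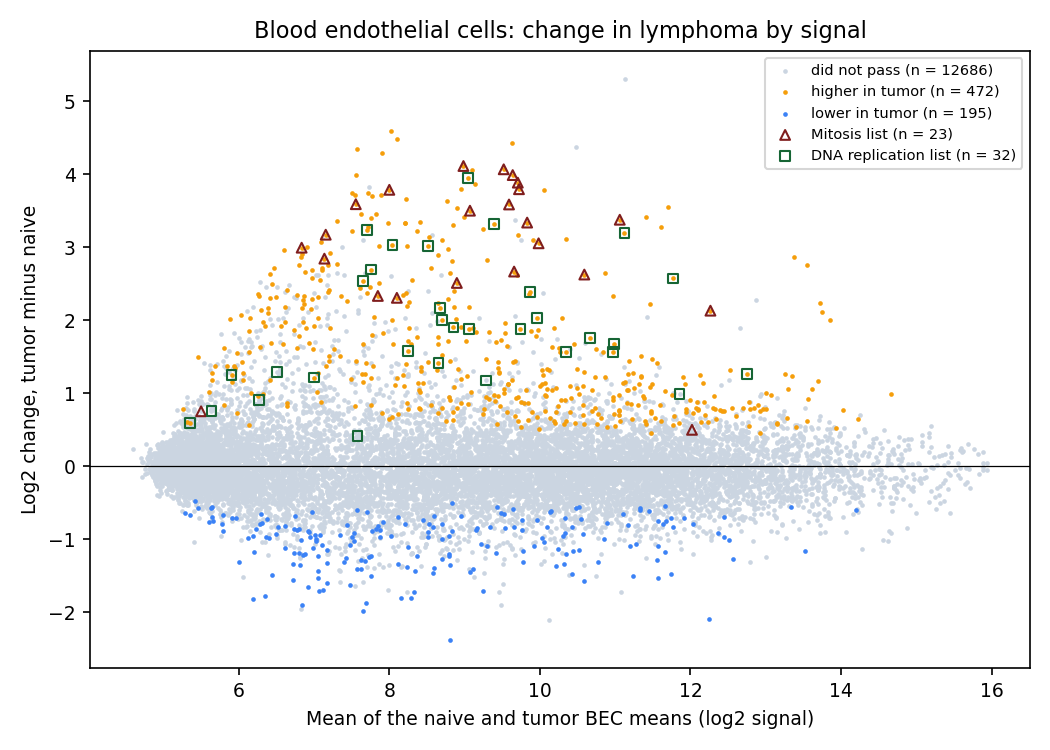
Log2 change of each of the 13353 tested genes (tumor minus naive BECs, n = 3 and 3) against the mean of both group means (log2 signal), each point 1 gene. Members of the mitosis list (triangles) and of the DNA replication list (squares) lie above 0 throughout, with 21 of 23 and 26 of 32 called higher.

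Cell division genes made up the largest rise. Of 36 genes of chromosome segregation and cytokinesis, 34 had values, 23 had signal above the unlit level in at least 1 of the 8 groups and were tested, and 21 of these were higher in tumor BECs (91.3%, against 3.53% of all genes). Their median log2 change was 3.17. Since a gene that is lit only in a tumor group enters the test through that group, the same was counted with no filter on signal: 21 of 34 were higher, with a median of 2.57. All 3 naive replicates were above the unlit level for 18 of the 23. Kif23, a kinesin of the midzone, and Cenpf, a centromere protein, were tested and did not pass (log2 change 0.50 and 0.75).

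Top2a, the topoisomerase that untangles chromosomes, read 6.11, 7.60 and 7.07 in naive and 11.44, 11.60 and 10.07 in tumor BECs. The groups lay far apart, and the rise was 17.3-fold (log2 change 4.11 ± 0.56, adjusted p = 0.00037). Cdk1, the kinase that drives entry into mitosis, read 8.13, 8.16 and 8.19 in naive and 11.72, 11.82 and 10.94 in tumor BECs, a 10.1-fold rise (3.34 ± 0.39, adjusted p = 0.00018). Kif11, the motor that separates spindle poles, read 5.55, 6.07 and 5.66 against 9.80, 9.76 and 8.48 (3.59 ± 0.45, adjusted p = 0.00018). In all of them tumor replicate 3 was the lowest of the tumor group and still above every naive replicate. Birc5 (survivin), Cdca8 and Cdca3 rose by 3.79, 3.99 and 4.07, the cytokinesis genes Anln and Prc1 by 3.88 and 3.38, and the spindle gene Nusap1 by 3.50 on the log2 scale. Mitotic or S phase genes outside the list also stood among the 15 largest rises: Kif2c, a kinesin that shortens microtubules, rose by 4.29, the mitotic kinase Pbk by 4.06, the phosphatase Cdkn3 by 3.79, Sapcd2 by 3.99, and Pclaf, which binds the replication clamp PCNA, by 4.49, and so did the histone gene H2ac11, by 3.87.

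Genes of DNA replication rose with them. Of 34 list members 33 had values and 32 were tested, of which 26 were higher (81.2%, against 3.53% of all genes). The median log2 change of the 32 was 1.82, and with no filter on signal 25 of 33 were higher. Tk1, thymidine kinase, read 6.87, 7.67 and 6.66 in naive and 11.21, 11.44 and 10.40 in tumor BECs (3.95 ± 0.48, adjusted p = 0.00018). Mcm5, a subunit of the replicative helicase, read 10.66, 10.30 and 10.50 against 13.28, 13.60 and 12.29 (2.57 ± 0.34, adjusted p = 0.00025), and Tyms, which makes thymidylate, read 10.27, 10.13 and 10.02 against 11.99, 11.96 and 11.49 (1.68 ± 0.25). For each of these genes the lowest tumor value exceeded the highest naive value by more than 1 log2 unit. Uhrf1, which maintains DNA methylation at the fork, rose by 3.19, the helicase factor Gins2 by 3.03 and the histone chaperone subunit Chaf1a by 3.01. Mcm3, Pcna, Pold1, Rfc3, Orc1 and Ccne1 lay above 0 and did not pass.

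The rise of division genes was seen in tumor replicate 3, in which the B cell and leukocyte sums were within the naive range. Vpreb3 and Mzb1, known from the B cell lineage, still read above every naive replicate in it, and Cd79b did not. In tumor replicate 3, 3 of the 14 B cell markers lay above every naive replicate and 4 lay below every one. The shares of all tested genes were 25.9% and 26.2%. There, all 23 mitosis genes and all 32 replication genes lay above every naive replicate, as did 25.9% of all tested genes, with median distances from the naive mean of 2.32 and 1.16 on the log2 scale. The same medians were 3.56 and 1.93 in tumor replicate 1 and 3.68 and 2.33 in tumor replicate 2. The B cell sums had the same order, with 13330, 23110 and 3028 in tumor replicates 1, 2 and 3. With tumor replicate 3 as the only tumor sample, taken to vary like the other groups, 21 of 23 and 19 of 32 were higher at an unadjusted p under 0.05 and 0 after adjustment. Fibroblast RNA was high in tumor replicate 3 and at the naive level in tumor replicate 1. The B cell and leukocyte sums of tumor replicate 1 were 13330 and 24990, against 2607 to 3612 and 7131 to 8391 in naive BECs. Without naive replicate 2 and tumor replicates 2 and 3, a setting chosen after seeing the data that leaves 1 tumor sample, the median log2 changes were 3.59 and 2.01. No tumor replicate had its B cell, leukocyte and fibroblast sums all within the naive range. The part of other dividing cells in these values was not tested.

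**Figure D2:**
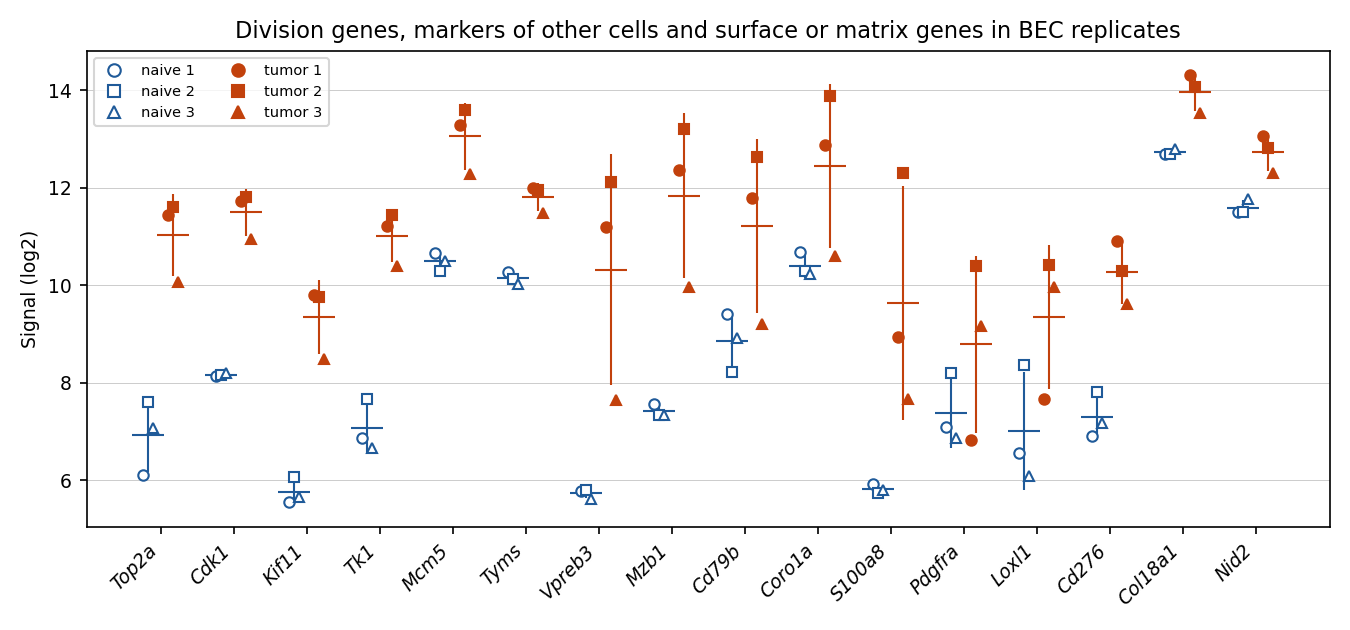
Log2 signal of 16 genes in the naive (open symbols) and tumor (filled symbols) BEC replicates, with the mean (horizontal line) and SD (vertical line) of n = 3. Division genes such as Top2a and Cdk1 are high in all 3 tumor replicates, whereas the B cell genes Vpreb3 and Cd79b are high in tumor replicates 1 and 2, and Pdgfra and Loxl1 in tumor replicates 2 and 3.

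The letters around the starts of the division genes were not used to choose the lists. Promoters are shown because genes of mitosis and of replication are known to be switched on through different elements, the cell cycle homology region (CHR, TTTGAA) with CCAAT boxes for mitosis and E2F sites for replication. Sequences of 300 bases around the start (250 before and 50 after) came from RefSeq on GRCm38.p6, and both strands were searched for TTTGAA, for CCAAT and for the E2F letters TTTGGCGC, TTTCCCGC or TTTCGCGC. TTTGAA was found in 17 of the 20 tested mitosis genes with a promoter in the table (85.0%) and in 2 of 27 replication genes (7.41%), against 12.6% of the 10699 promoters of tested genes and 18.1% of all 27025. CCAAT was found in 75.0% of the mitosis and 59.3% of the replication promoters, against 38.4% of those of tested genes and 37.9% of all. The E2F letters were found in 33.3% of the replication and 5.0% of the mitosis promoters, against 3.22% of those of tested genes and 1.91% of all. Among members that rose, TTTGAA was held by 15 of 18 mitosis genes (83.3%) and 2 of 21 replication genes (9.52%), and the E2F letters by 1 of 18 and 5 of 21 (23.8%). Of the 17 mitosis promoters with TTTGAA 10 held a match after the start, as did 5 of the 9 replication promoters with E2F letters. A match is a description of the sequence and not evidence of a bound site. From the mitosis genes that rose, 5 were picked that hold both TTTGAA and CCAAT in the 160 bases up to the start, so that all of them have the pair. These bases follow, 5′ to 3′ on the strand of the gene, with the letters of the CHR, of CCAAT boxes and of E2F sites on either strand in capitals.
Top2a, chr11:99024190-99024349, minus strand: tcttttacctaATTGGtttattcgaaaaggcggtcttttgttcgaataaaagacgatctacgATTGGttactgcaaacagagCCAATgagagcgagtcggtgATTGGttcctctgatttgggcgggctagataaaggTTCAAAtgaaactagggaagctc
Kif11, chr19:37376222-37376381, plus strand: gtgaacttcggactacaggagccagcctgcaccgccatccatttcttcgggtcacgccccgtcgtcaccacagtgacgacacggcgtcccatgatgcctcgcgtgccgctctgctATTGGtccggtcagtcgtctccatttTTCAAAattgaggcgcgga
Cdk1, chr10:69352913-69353072, minus strand: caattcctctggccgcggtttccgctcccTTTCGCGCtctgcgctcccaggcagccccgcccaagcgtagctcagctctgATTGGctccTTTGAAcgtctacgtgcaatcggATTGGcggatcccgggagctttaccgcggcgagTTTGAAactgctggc
Espl1, chr15:102296133-102296292, plus strand: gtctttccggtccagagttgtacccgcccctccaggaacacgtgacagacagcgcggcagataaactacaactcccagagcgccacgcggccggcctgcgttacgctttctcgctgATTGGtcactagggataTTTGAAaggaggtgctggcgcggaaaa
Ckap2, chr8:22185820-22185979, minus strand: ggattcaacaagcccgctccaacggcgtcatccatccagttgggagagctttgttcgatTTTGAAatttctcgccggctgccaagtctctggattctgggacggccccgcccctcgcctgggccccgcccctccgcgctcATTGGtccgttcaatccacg

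In Top2a the element nearest the start is TTCAAA, which is TTTGAA on the other strand, 23 bases before it, behind 4 CCAAT boxes at 149, 98, 78 and 58 bases before the start. Cdk1 holds 2 copies, 71 and 15 bases before the start, 2 CCAAT boxes and the E2F letters. Kif11 and Espl1, the latter encoding separase, each pair 1 copy of TTTGAA at 19 and 27 bases with 1 CCAAT box at 45 and 44 bases. Ckap2, a spindle protein, has its copy 101 bases and its CCAAT box 20 bases before the start. In tumor BECs Espl1 rose by 2.99 and Ckap2 by 2.84, and the call of Espl1 was lost without tumor replicate 1 or 2, with an adjusted p of up to 0.076. Espl1 was above the unlit level in 1 of 3 naive replicates. The same stretch of 3 replication genes that rose, Mcm5, Cdc6, which loads the helicase, and the helicase subunit Mcm6, is given with the same letters in capitals.
Mcm5, chr8:75109349-75109508, plus strand: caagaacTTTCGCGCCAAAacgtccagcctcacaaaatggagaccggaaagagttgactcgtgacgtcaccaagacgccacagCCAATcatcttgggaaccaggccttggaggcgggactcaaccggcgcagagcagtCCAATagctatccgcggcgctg
Cdc6, chr11:98907991-98908150, plus strand: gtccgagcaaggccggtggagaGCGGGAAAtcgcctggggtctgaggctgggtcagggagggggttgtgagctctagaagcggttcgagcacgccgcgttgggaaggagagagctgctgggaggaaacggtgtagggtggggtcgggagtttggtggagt
Mcm6, chr1:128359706-128359865, minus strand: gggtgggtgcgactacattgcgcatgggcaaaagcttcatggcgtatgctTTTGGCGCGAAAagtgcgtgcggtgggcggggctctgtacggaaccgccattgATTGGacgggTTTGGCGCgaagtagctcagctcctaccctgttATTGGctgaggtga

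These 3 were picked from the 5 of 21 replication genes that rose and hold E2F letters, and none of them has TTTGAA in this stretch. Overlapping matches on the 2 strands start at 153 and 149 bases before the start in Mcm5 and at 110 and 106 bases in Mcm6, which has a further match at 47 bases. Cdc6 and Mcm6 rose by 2.16 and 1.56 on the log2 scale. Their calls were lost when naive 1, tumor 1 or tumor 2 was left out, and for Mcm6 also without naive replicate 3, with adjusted p of up to 0.083 and 0.13.

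The HEV genes address the question whether the entry gates of the node for lymphocytes change in lymphoma. In these arrays of all BECs 1 of the tested HEV genes passed the test, and most of the others lay below 0. Of the 6 proteins that carry or could carry PNAd sugars, 0 passed, 5 lay below 0 and the median log2 change was -0.32. Glycam1, the secreted ligand of L-selectin, read 15.69, 15.26 and 15.76 in naive and 14.66, 15.28 and 15.24 in tumor BECs. Naive replicate 2 lay within the tumor range, and the change of -0.51 had a 95% interval from -1.78 to 0.76 (adjusted p = 0.72). Cd34 and Podxl, sialomucins of all vessels, changed by 0.04 and -0.18, Emcn (endomucin) by -0.19, and Parm1 and Madcam1 by -0.45 and -0.53.

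Of 17 enzymes and carriers that build the L-selectin sugars, 0 passed, 12 lay below 0, and the median was -0.27. The enzymes most typical of HEVs were split by naive replicate 2. Chst4, the HEV sulfotransferase, read 10.98, 8.95 and 11.18 in naive and 9.13, 10.12 and 9.98 in tumor BECs. Fut7, the fucosyltransferase of the same sugars, read 10.22, 8.52 and 10.27 against 8.01, 9.50 and 9.42. Gcnt1, which branches core 2 O-glycans, read 12.62, 10.82 and 12.70 against 9.95, 11.14 and 11.27. Naive replicates 1 and 3 were set apart after seeing the data. They lay above every tumor replicate for 8 of the 17, against 2942 of all 13353 tested genes. All 3 naive replicates did so for 0 of the 17, against 13.0% of all genes. For Chst4, Fut7 and Gcnt1 naive replicates 1 and 3 lay above every tumor replicate. Naive replicate 2 lay below all or most of the tumor values of these 3 genes. Their changes of -0.63, -0.70 and -1.26 had 95% intervals that include 0 (-2.01 to 0.75, -1.84 to 0.45 and -2.68 to 0.16), and neither a fall nor its absence can be read from them. Chst2, a second sulfotransferase, changed by -0.29, Fut4 by -0.64, and B4galt4, which extends the chain, by -0.65. B3gnt3, which extends core 1 O-glycans, Slc35c1, the Golgi importer of GDP-fucose, and Galnt1, which starts O-glycans, were above 0 by 0.32, 0.50 and 0.51, and B4galt1, C1galt1, C1galt1c1, Chst1, Galnt2, St3gal3, St3gal4 and St3gal6 changed by -0.30 to 0.09.

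Sphk1 was the HEV gene that fell. It encodes sphingosine kinase 1, which makes the lipid that draws lymphocytes through endothelium and guards its barrier. It read 12.55, 11.77 and 12.71 in naive and between 10.13 (replicate 1) and 11.29 (replicate 3) in tumor BECs, without overlap and also with naive replicate 2 above every tumor replicate. The fall was 2.90-fold (log2 change -1.54 ± 0.28, 95% interval -2.13 to -0.94, adjusted p = 0.0033) and was called under each single omission of a replicate, but not in the fit of the 6 BEC replicates alone (adjusted p = 0.11). Sgpp2, a phosphatase of the same lipid, read 7.45, 7.08 and 7.18 against 4.86, 5.07 and 6.45 and fell as well (-1.77 ± 0.28, adjusted p = 0.00077, and 0.11 in that fit), with 1 of 3 tumor replicates above the unlit level. Of the 10 tested HEV genes beside scaffolds and enzymes, Sphk1 included, 1 fell (10.0%, against 1.46% of all genes), 9 lay below 0 and the median was -0.51. Ccl21a, the chemokine that arrests lymphocytes on HEVs, read 15.60, 14.57 and 15.74 in naive and 13.27, 15.13 and 14.96 in tumor BECs (-0.85, 95% interval -2.79 to 1.09). Apoe read 13.71, 13.13 and 13.51 against 11.10, 12.35 and 12.94 without overlap and did not pass (-1.32 ± 0.74, adjusted p = 0.34), nor did Ackr1, the chemokine scavenger of venules (-0.73). Ubd and Ch25h, both strong in HEV cells, changed by -0.47 and -0.36, Il6st by -0.55, Ltbr, the lymphotoxin β receptor, by -0.09, Ctsh by -0.02 and Slco2a1, a prostaglandin carrier, by 0.53. Enpp2, which encodes autotaxin, was not analysed here.

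**Figure D3:**
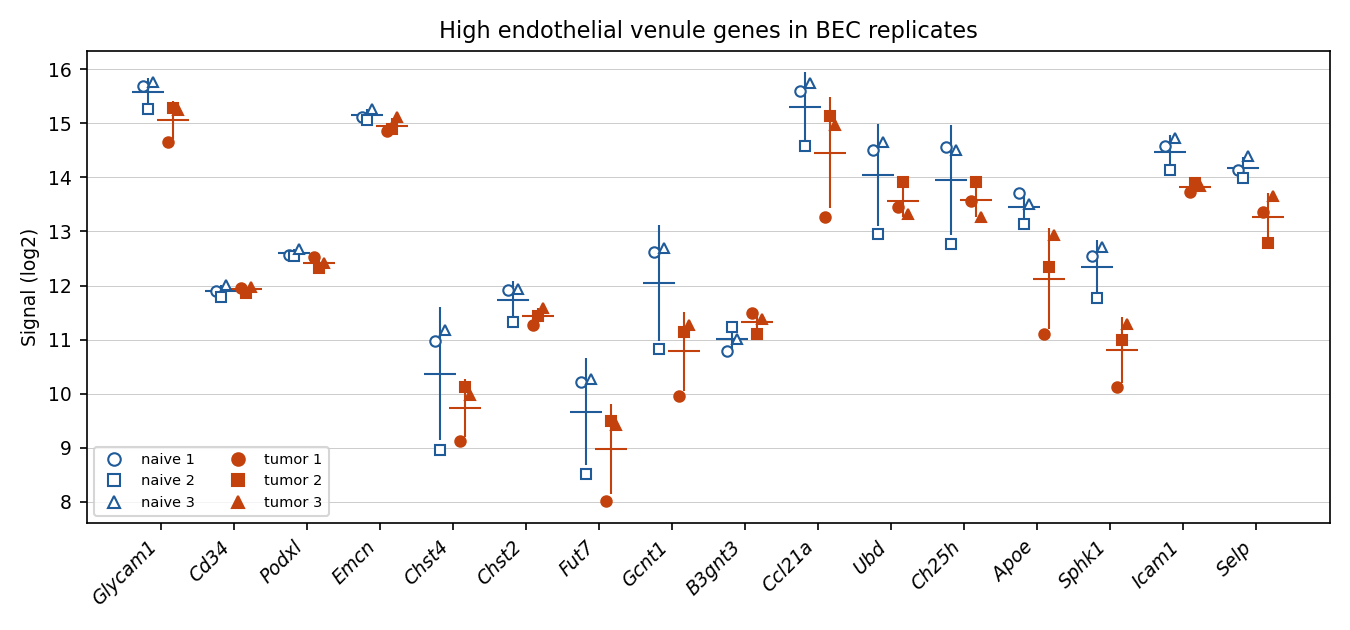
Log2 signal of 16 genes of HEVs and leukocyte adhesion in naive (open symbols) and tumor (filled symbols) BEC replicates, with the mean (horizontal line) and SD (vertical line) of n = 3. Naive replicate 2 (open square) lies below the other naive replicates for Chst4, Fut7, Gcnt1, Ccl21a, Ubd and Ch25h, and Sphk1 is lower in all 3 tumor replicates.

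Naive replicate 2 also had a fibroblast sum of 12450 against 6540 and 5495 in the other naive replicates, and its Krt8 signal, a keratin, was 11.62 against 8.40 and 9.92. Without it the median of the 10 HEV genes beside scaffolds and enzymes was -0.95, that of the enzymes was -0.33, and Sphk1 was the gene called. The part of this replicate's other cells in its HEV values was not tested. The lymphotoxin and NF-κB list, with all 22 tested members below 0 and a median of -0.42, held 1 gene that fell (4.5%, against 1.46% of all genes). Tnfrsf11a, the receptor RANK, read 10.30, 8.71 and 10.40 in naive and 8.47, 7.99 and 8.59 in tumor BECs (-1.45 ± 0.41, adjusted p = 0.044), a call lost when naive replicate 1 or 3 or tumor replicate 1 or 2 was left out (adjusted p up to 0.23). All 3 naive replicates were above every tumor replicate for 8 of the 22, against 13.0% of all genes. For naive replicates 1 and 3 alone, set apart after seeing the data, it was 18 of the 22, against 2942 of all 13353. Rela, the p65 subunit of NF-κB, changed by -0.46, the TWEAK receptor Tnfrsf12a by -0.72, and the adaptors Traf2 and Birc3 by -0.95 and -0.75, none past the threshold.

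Adhesion molecules for leukocytes showed a like picture. Of 18, 0 passed, 14 lay below 0 and the median was -0.41. Icam1, the integrin ligand on which lymphocytes arrest, read 14.58, 14.13 and 14.72 in naive and 13.73, 13.90 and 13.84 in tumor BECs, and Selp (P-selectin) read 14.14, 13.99 and 14.39 against 13.35, 12.78 and 13.65. Both pairs of groups did not overlap, which 13.0% of all genes share on the lower side, and the changes of -0.65 and -0.91 did not pass (adjusted p = 0.46 and 0.56). Sele and Vcam1, induced on inflamed endothelium, changed by -0.58 and -0.60 with overlap. Of 18 chemokines and receptors 0 passed: Cxcl9 read 13.37, 14.11 and 13.41 against 12.17, 11.79 and 13.19 (-1.25), and Cxcl13 read 13.23 in tumor replicate 2 alone and 8.39 to 10.18 elsewhere, in the replicate with the highest fibroblast sum.

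Vessel types and the pathways of vessel growth held few calls. No gene passed among 17 arterial, 18 capillary and 15 venous genes, whose medians were -0.51, -0.39 and -0.55, among 29 endothelial transcription factors (-0.36), 19 junction genes (-0.23), 18 Notch genes (-0.13), 10 VEGF ligands and receptors (-0.29), or 8 genes of the angiopoietin and apelin systems (-0.22). Tll1, a venous protease, read 8.95 and 9.06 in naive replicates 1 and 3 and 5.80 to 7.10 in the other 4, and Cd300lg, a capillary sialomucin, changed by -0.71 and the flow-responsive factor Klf4 by -0.95. Vegfa, the main growth factor of vessels, changed by -0.43, its coreceptor Nrp1 by -0.50, Angpt2, which loosens vessels for sprouting, by 0.36, its receptor Tek by -0.35 and Dll4, the Notch ligand of tip cells, by -0.53. Kdr, the main VEGF receptor, read 5.48 to 6.12, next to the unlit level, where a change could not be seen. Of 25 tip cell genes 1 rose, Nid2 (4.0%, against 3.53% of all genes). The 21 genes of BMP and TGF-β signalling (-0.36) and the 20 of vessel tone and haemostasis (-0.30) held no call either.

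**Figure D4:**
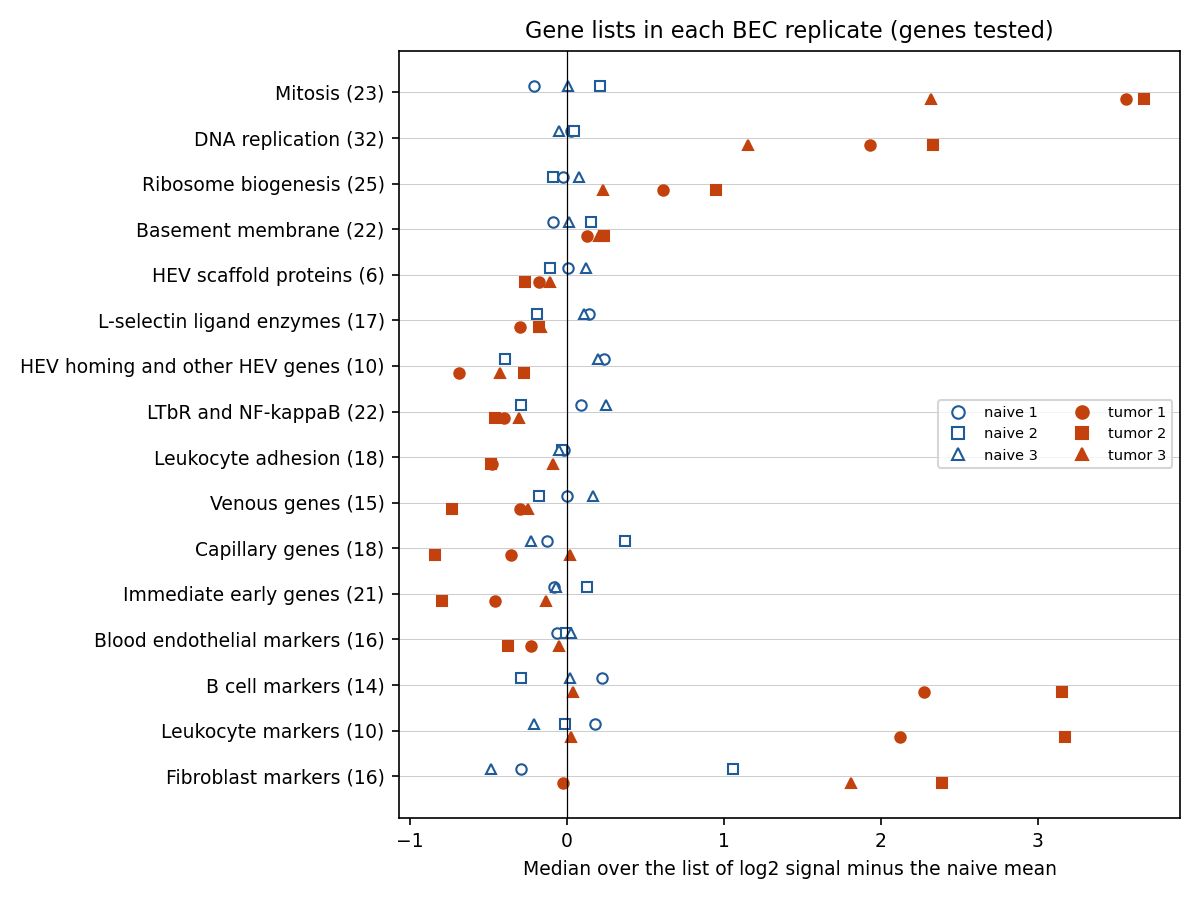
For 16 gene lists (number of genes tested in brackets), the median over the genes of the log2 signal minus the mean of the naive replicates, in each naive (open) and tumor (filled) BEC replicate. Mitosis and DNA replication are high in all 3 tumor replicates, B cell and leukocyte markers in tumor replicates 1 and 2, fibroblast markers in naive replicate 2 and tumor replicates 2 and 3.

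Basement membrane genes held rises as well. Of 22 tested, 2 rose (9.09%, against 3.53% of all genes), 16 lay above 0 and the median was 0.22. Col18a1, the collagen whose end fragment is endostatin, read 12.69, 12.70 and 12.80 in naive and 14.31, 14.07 and 13.53 in tumor BECs. All tumor values lay above the narrow naive range, and the rise was 2.36-fold (1.24 ± 0.22, adjusted p = 0.0028), called under each single omission and not in the fit of the 6 BEC replicates alone (adjusted p = 0.060). Nid2, a nidogen that links laminin to collagen IV, read 11.50, 11.50 and 11.78 against 13.07, 12.81 and 12.30 (1.13 ± 0.32, adjusted p = 0.044), and its call was lost under each single omission but that of tumor replicate 3 (adjusted p up to 0.19). Both were highest in tumor replicate 1, whose fibroblast sum was 6424 against 5495 to 12450 in naive BECs. The pericyte and smooth muscle sum was above every naive replicate in all 3 tumor replicates (28410 to 37700 against 12470 to 25060), and its part in these rises was not tested. Lamb1, a laminin chain and known tip cell gene, read 7.25 to 7.33 against 7.99 to 8.14 and did not pass (0.77 ± 0.34). Of 23 matrix peptidases and inhibitors 1 rose (4.35%, against 3.53% of all genes), Timp1 (1.15 ± 0.33, adjusted p = 0.048, lost under each single omission but that of tumor replicate 3, p up to 0.27). Mmp14, the membrane peptidase of sprouting cells, read 12.61, 12.09 and 12.63 against 13.75, 13.52 and 13.02 without passing (0.99 ± 0.31, adjusted p = 0.070).

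Surface ligands of T cell checkpoints moved both ways: of 15 tested, 2 rose (13.3%, against 3.53% of all genes) and 1 fell (6.67%, against 1.46%). Cd276, which encodes B7-H3 and is known from tumor vessels, read 6.90, 7.81 and 7.17 in naive and 10.90, 10.29 and 9.61 in tumor BECs. The groups lay far apart, and the rise of 7.86-fold (2.97 ± 0.40, adjusted p = 0.00032) was called under each single omission and in the fit of the 6 BEC replicates alone (adjusted p = 0.029). It was highest in tumor replicate 1, where B cell and pericyte sums were high and the fibroblast sum was not, and lowest in tumor replicate 3, where fibroblast and pericyte sums were high and the B cell sum was not, and the part of these cells was not tested. Cd274, which encodes PD-L1, read 13.41, 12.95 and 13.25 against 11.53, 11.78 and 12.49 and fell (-1.27 ± 0.34, adjusted p = 0.035), with the call lost when naive replicate 1 or 3 or tumor replicate 1 or 2 was left out (adjusted p up to 0.17). Lgals1, the T cell binding galectin-1, rose (1.47 ± 0.39, adjusted p = 0.033), lost under the same 4 omissions (adjusted p up to 0.20), and naive replicate 2 read 11.99 against 10.27 and 9.99 in the other naive replicates.

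Genes of protein synthesis and sugar use rose in part. Of 25 genes of ribosome biogenesis 24 lay above 0, with a median of 0.62, and 5 rose: Nhp2, a protein of pseudouridine-guiding particles, read 10.88, 10.73 and 10.93 against 12.37, 12.60 and 11.80 (1.41 ± 0.22, adjusted p = 0.00086), Mybbp1a by 1.24, Heatr1 by 0.87, Nop56 by 0.84 and Noc4l by 0.82. Nhp2 alone of the 5 was called under each single omission, and the highest adjusted p of the others was 0.29. Of 22 genes of glycolysis and hypoxia 3 rose (13.6%, against 3.53% of all genes), the enzymes Pkm, Pgk1 and Pgam1, by 0.92, 0.91 and 0.74. Each call was lost without tumor replicate 1 or 2 and naive replicate 1 among others (adjusted p up to 0.18), and Ldha changed by 0.52. Their median was 0.30, and the medians of both lists were higher in tumor replicate 2 than in tumor replicate 3 (0.95 against 0.23 for ribosome biogenesis).

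Immediate early and interferon genes lay lower. Of 21 immediate early genes, which answer growth factors and the stress of cell isolation within minutes, 3 fell (14.3%, against 1.46% of all genes) and the median was -0.48. Nr4a2 read 10.92, 11.21 and 11.37 against 9.46, 9.09 and 10.54 (-1.47 ± 0.34, adjusted p = 0.016), Fosb 13.84, 14.37 and 14.08 against 13.09, 12.01 and 13.70 (-1.17 ± 0.30, adjusted p = 0.028) and Egr2 fell by 1.10 (adjusted p = 0.035). In all 3 tumor replicate 2 was lowest and tumor replicate 3 nearest to the naive values, and each call was lost when naive 3, tumor 1 or tumor 2 was left out (adjusted p up to 0.26). Of 27 interferon genes 23 lay below 0 (median -0.27) and 1 fell (3.70%, against 1.46% of all genes): Igtp, an interferon-induced GTPase (-0.92 ± 0.25, adjusted p = 0.035). All 15 genes of MHC class I and its proteasome lay below 0 (median -0.30), and 1 fell (6.67%, against 1.46% of all genes): H2-T23, which encodes Qa-1 (-0.60 ± 0.16, adjusted p = 0.038). Both calls were lost under each single omission but that of tumor replicate 3 (adjusted p up to 0.22).

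Vpreb3 and Mzb1, known from the B cell lineage, were among the 15 largest rises. Vpreb3, a partner of the pre-B cell receptor, read 5.78, 5.80 and 5.61 in naive and 11.20, 12.12 and 7.64 in tumor BECs (4.59 ± 0.97, adjusted p = 0.0085), with the call lost without tumor replicate 1 or 2 (adjusted p up to 0.085). Mzb1, a chaperone of immunoglobulin assembly, read 7.34 to 7.57 against 12.36, 13.21 and 9.95 (4.42 ± 0.78, adjusted p = 0.0024). Cd79b, a chain of the B cell receptor, read 9.41, 8.23 and 8.91 against 11.79, 12.64 and 9.21 and did not pass (adjusted p = 0.086). Neutrophil S100a8 read 5.74 to 5.92 against 8.94, 12.30 and 7.66 and did not pass either (adjusted p = 0.056). In tumor replicate 3 Vpreb3, Mzb1 and S100a8 read above every naive replicate and Cd79b did not.

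The largest falls were fewer and smaller. Csf3, the neutrophil growth factor G-CSF, read 10.28, 8.87 and 10.85 in naive and 7.38, 7.36 and 8.13 in tumor BECs, the deepest fall of all tested genes (-2.38 ± 0.51, adjusted p = 0.0096), and its call was lost when naive 3, tumor 1 or tumor 2 was left out (adjusted p up to 0.076) and in the fit of the 6 BEC replicates alone (adjusted p = 0.092). Col13a1, a transmembrane collagen, read 8.96, 8.94 and 9.27 against 7.36, 6.64 and 7.75 (-1.81 ± 0.29, adjusted p = 0.00093), and Hgfac, the activator of hepatocyte growth factor, fell by 1.61 (adjusted p = 0.00040). Both were called under each single omission, as were A130051J06Rik and the calcium-binding protein gene Chp2, which fell by 1.70 and 1.64. Tnfsf15, an endothelial cytokine that restrains vessel growth, read 8.05, 5.45 and 7.80 in naive BECs, where replicate 2 was below the unlit level. In tumor BECs it was not above that level (5.09, 5.35 and 5.40). By the naive mean it was at least 2.88-fold lower (adjusted p = 0.017, and up to 0.11 without naive replicate 1 or 3 or tumor replicate 1 or 2). The sterol hydroxylase Cyp27a1 and the glutamyl transferase Ggt5 fell by 1.71 each, Lonrf3 by 1.81, Pou3f1 by 1.99 and Cmya5 by 1.72, and the calls of these 5 were each lost without 1 or more of the replicates (adjusted p up to 0.18).

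Whether these changes were those of BECs or of all stroma was asked by testing the difference between cell types. The change in BECs differed from that in FRCs for 121 genes (0.906%), from that in DN cells for 57 (0.427%) and from that in LECs for 1 (0.00749%). Of the mitosis and replication genes 0 differed from any of the 3 populations in limma, and the median log2 changes of the mitosis list were 3.03 in FRCs, 2.45 in LECs and 2.79 in DN cells beside 3.17 in BECs. Cd276 rose by 2.97 in BECs and changed by -1.10 in FRCs, 1.65 in LECs and 0.07 in DN cells, and the difference from FRCs was 4.07 ± 0.57 (adjusted p = 0.0013) and from DN cells 2.90 ± 0.57 (adjusted p = 0.024). Col18a1 and Nid2 had changes of -0.71 and -0.97 in FRCs, against 1.24 and 1.13 in BECs (adjusted p of the difference 0.0049 and 0.032). Csf3 went the other way, with 2.55 in FRCs against -2.38 in BECs (adjusted p = 0.0021). Sphk1 and Sgpp2 changed by 0.45 and -0.06 in FRCs, and these changes differed from those in BECs (adjusted p = 0.022 and 0.041). In LECs, Col18a1, Nid2, Csf3, Sphk1 and Sgpp2 changed by 0.64, 0.73, -1.57, -0.63 and 0.08. None of these LEC changes passed the test, and none differed from that in BECs. Bcat1, which breaks down branched amino acids and is a target of Myc, read 5.18, 5.65 and 5.37 in naive and 10.34, 11.32 and 7.55 in tumor BECs (4.34 ± 0.72, adjusted p = 0.0013), with 1 of 3 naive replicates above the unlit level. It changed by -0.06 in FRCs (adjusted p of the difference 0.043) and by 4.58 in DN cells. In DN cells Pecam1 changed by 3.26, Vpreb3 by 6.24 and Mzb1 by 6.80, and 8 of 14 B cell markers were higher, against 628 of all 13353 genes. Over the tumor BEC replicates Bcat1 had the same order as the B cell sums, and the part of B cells in it was not tested.

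**Figure D5:**
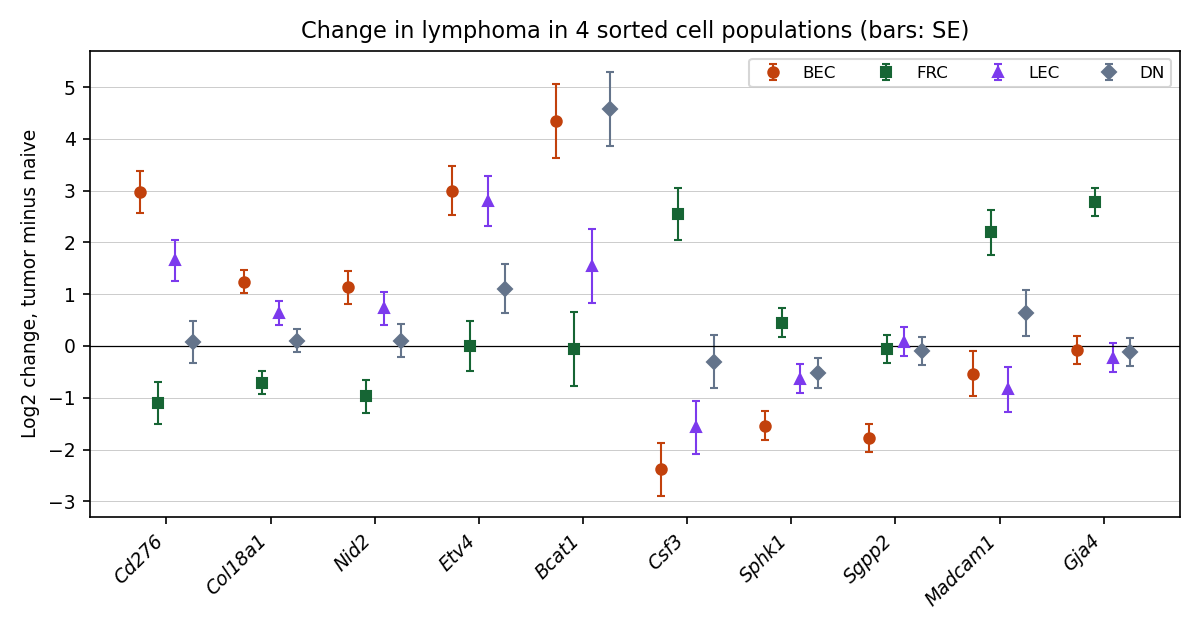
Log2 change (tumor minus naive, n = 3 and 3, bars SE) of 10 genes in BECs, FRCs, LECs and DN cells. Cd276, Col18a1, Nid2, Etv4 and Bcat1 lie above 0 in BECs and at or below 0 in FRCs, and Csf3, Sphk1, Sgpp2, Madcam1 and Gja4 lie lower in BECs than in FRCs.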

How the data were processed

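RNA of 24 biological replicates was hybridised to Illumina mouse bead arrays on 2 strips each. The log2 values (3.94 to 16.15, 45281 probes) are those deposited by the authors, and their background correction and normalisation were not given in the sources used here. The deposited bead files hold the intensity of each bead and served as an alternative after linking 45071 probes to bead codes. The values were quantile normalised over 48 strips and the strips of a replicate were averaged. A probe was kept where a group mean was above 5.57 (mode 4.97 plus 3 robust SDs of 0.2), and the brightest probe stood for a gene, which left 13353 genes. Genes were named through the platform annotation and RefSeq (34885 probes with 1 symbol, 18 with several, 10378 with none). limma 3.58.1 (R 4.3.3) fitted the 8 group means to all 24 replicates, with Benjamini-Hochberg adjustment over all genes at 0.05, SE being the moderated standard error, and 95% intervals from the same fit. Sums of markers are of linear signal. The fit was tested on simulated data. Promoters were searched in Python 3.11.15. Replicate numbers were checked for pairing by the correlation of deviations from the group means (0.042, -0.17 and -0.22) and taken as numbers only.

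Named genes are cell type markers, the 15 largest called rises and falls without overlap, the HEV lists, the members of other lists with the smallest adjusted p or with the largest changes opposite in sign to the list's median, and genes the study names (3 of 179 by this alone). Another 20 were chosen after their values were seen, and uncalled division genes are named to complete their counts. Members and lists were chosen with earlier results of these data known.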

Additional observations from a re-analysis of the deposited data

Results flagged for a closer look

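Each result here is a difference between the change in BECs and the change in another population that passed the test of the difference itself in limma. Groups of 3 were too small for a test of single outlying samples. Against FRCs the difference in log2 change was 4.40 for Bcat1, -4.93 for Csf3, -1.72 for Sgpp2, -1.99 for Sphk1, 1.95 for Col18a1, 2.10 for Nid2 and 4.07 for Cd276. Other genes differed because FRCs changed while the change in BECs did not pass: Madcam1 by -2.73 (2.20 in FRCs, adjusted p of the difference 0.041), Pf4, a platelet chemokine, by -4.42 (3.14 in FRCs and -1.28 in BECs, adjusted p = 0.0027), the gap junction gene Gja4 by -2.86 (2.78 in FRCs, adjusted p = 0.0010), the sphingosine phosphate receptor gene S1pr3 by -2.03 (1.86 in FRCs, adjusted p = 0.0049) and Npas2 by 1.66 (-1.52 in FRCs, adjusted p = 0.033). Etv4, an ETS factor, rose by 3.00 in BECs and differed from FRCs by 3.00 (adjusted p = 0.041), and it also rose by 2.80 in LECs (adjusted p = 0.0059). In naive BECs Bcat1 and Etv4 were above the unlit level in 1 of 3 replicates. Against DN cells the difference was 2.90 for Cd276, -2.34 for Cd274 (1.07 in DN cells) and -2.27 for Tie1, an endothelial receptor (1.98 in DN cells and -0.29 in BECs, adjusted p = 0.023).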

How the results depend on the processing

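Counts are given as genes higher, genes lower and genes whose change differed from that in FRCs, beside 472, 195 and 121. Array weights gave 1937, 2013 and 2649. The fit of the 6 BEC replicates alone gave 113 and 17, and with quantile normalisation over BEC strips only 99 and 12. An unpaired t-test of the 6 BEC replicates gave 1144 and 1062 without adjustment and 0 and 0 with it. Strip 2 alone lowered the genes lower to 97 and the differences to 72, strip 1 alone gave 76 differences, and a filter that asks for a BEC group above background gave 56. Leaving out 1 BEC replicate gave 152 to 885, 31 to 481 and 38 to 252. In settings chosen after seeing the data, leaving out tumor replicates 1 and 2 together gave 0, 0 and 7, and leaving out naive replicate 2 with tumor replicates 2 and 3 gave 207 and 117. The replicate block, for numbers that do not pair the samples, gave 376, 133 and 11. The other settings stayed within 1.5 times. The cause was not tested. Of 1656 results for the 72 called genes among 179, 1165 stayed past the threshold, 491 lost it and 0 reversed.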

Other observations

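Of 14 genes of the circadian clock, most of them named after their values were seen and not tested as a group, 5 fell in tumor BECs, beside 195 of all 13353 genes. Dbp, a clock output factor, read 13.48, 13.05 and 13.33 in naive and 10.99, 10.22 and 12.36 in tumor BECs (log2 change -2.10 ± 0.51, adjusted p = 0.021). Tef, a related factor, read 10.87, 11.20 and 10.93 against 9.64, 9.40 and 9.91 (-1.35 ± 0.25, adjusted p = 0.0036) and was called under each single omission. Per2 fell by 1.58, Nr1d1 by 1.31 and Nr1d2 by 0.84. The calls of Dbp, Per2, Nr1d1 and Nr1d2 were each lost without some replicates, tumor replicate 2 among them (adjusted p up to 0.28). Cry2, Ciart, Per1, Per3 and Bhlhe40 changed by -1.06, -1.16, -0.60, -0.54 and -0.43, and Arntl, Clock, Npas2 and Hlf by 0.25, 0.10, 0.14 and -0.12, none past the threshold. The time of day of the sorts was not given in the sources used here.

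The largest change of any gene was that of Scgb1b2, a secretoglobin, which read 5.06, 15.30 and 5.07 in naive and 13.61, 13.32 and 14.42 in tumor BECs and did not pass (adjusted p = 0.35). Summed signals of 4 red cell genes were 52430, 28500 and 33440 in naive and 15380, 7860 and 49670 in tumor BECs.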
